A study of Mus musculus with 6 samples.

Results

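The zinc-dependent histone deacetylases are the enzymes that remove acetyl groups from lysines by means of a zinc ion in their active site. The 10 genes Hdac1 to Hdac9 and Hdac11 were chosen by symbol, and all 10 were found among the 16415 listed genes of a table of mouse trigeminal ganglion messenger RNA. All 10 passed the filter on low values. The ganglion, which holds the sensory neurons of the head, came from mice labelled WT, with 3 libraries of treatment NC-up and 3 of treatment SETDB2-up. The labels do not spell out either treatment, and vector, promoter, route, dose, age and sex were not given in the sources used here. Whether the numbered libraries of a group are separate animals is not said either, so each p-value reflects only how these libraries scatter, which may be technical.

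Acetylation of histone tails loosens chromatin, and deacetylases reverse it. Class I enzymes (Hdac1, Hdac2, Hdac3 and Hdac8) are mainly nuclear, and all but Hdac8 work inside corepressor complexes such as NuRD, Sin3, CoREST and NCoR. Class IIa enzymes (Hdac4, Hdac5, Hdac7 and Hdac9) have weak catalytic activity of their own, bind MEF2 transcription factors, and leave the nucleus when kinases phosphorylate them and 14-3-3 proteins bind. Hdac6, of class IIb, is a cytoplasmic deacetylase of tubulin, and Hdac11 is the sole member of class IV. In sensory neurons these enzymes are studied for their part in axon injury responses and in the silencing of genes in chronic pain.

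Values are read counts that the authors normalised with a single factor per library, here called normalised reads. Recovered whole reads summed to between 19334997 and 23501386 per library. Setdb2, the gene that the treatment is named for, had 69.9, 58.4 and 71.5 normalised reads in NC-up, against 113, 97.6 and 104 in SETDB2-up, so that the labelled groups did not overlap (log2 change 0.65 ± 0.19 SE, adjusted p = 0.0253 by limma). That call was lost after a correction for GC content (0.49, adjusted p = 0.139 by limma) and without NC-up library 2 (0.56), SETDB2-up library 1 (0.60), 2 (0.70) or 3 (0.66). Markers fixed for sensory neurons were all in the table, 14 of 14, and their summed level was 264547 to 275984 in NC-up, against 257475 to 268817 in SETDB2-up. Markers of liver, 8 of 9 tested, summed to 33.5 to 45.6 in NC-up and to 83.0 to 6015 in SETDB2-up; Alb, for serum albumin, was listed at 0 in NC-up and at 1673, 3769 and 11.6 in SETDB2-up libraries 1, 2 and 3. All 6 tested keratinocyte markers had lower mean levels in SETDB2-up and 5 of them fell, as did 5 of 8 fibroblast, 4 of 8 skeletal muscle, 3 of 8 Schwann cell and 2 of 8 endothelial markers, and 1 of 6 red blood cell markers, beside 8.71% of all tested genes. After GC correction 3 keratinocyte, 4 fibroblast, 3 skeletal muscle and 1 red blood cell markers fell and no Schwann cell or endothelial marker did, beside 4.0% of all genes. Before it, of 14 sensory neuron markers 3 rose and 1 fell, and of 8 satellite glia markers 1 rose and 1 fell, beside 7.71% of all tested genes higher. None of 8 macrophage markers or of the 3 tested among 8 lymphocyte markers passed. After GC correction 4 sensory neuron markers rose and 1 fell, beside 2.17% of all genes higher. Of the satellite glia markers none rose and 1 fell after it. Mylpf of the muscle list and Krt14 of the keratinocyte list were at 0 in at least 1 library. Their part in the values below was not tested.

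Across the transcriptome 7.71% of 16387 tested genes were higher and 8.71% lower in SETDB2-up (limma, adjusted p under 0.05). Of the 10 deacetylases, 1 rose, Hdac3, and none fell. The other 9 did not pass, and 1 of the 10 had an unadjusted limma p under 0.05, against 30.6% of all genes. Their log2 changes ran from -0.16 to 0.20 with a median of 0.01, beside 0.00 for all genes, and 5 were positive and 5 negative. EdgeR on recovered reads called none of the 10 (16.5% of all genes), and DESeq2 called Hdac3 alone (18.1% of all genes). In bulk tissue, fewer cells of a type and less RNA per cell cannot be told apart.

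Hdac3 (gene 15183, chromosome 18, 37936971 to 37955015, minus strand, GRCm38) encodes the catalytic subunit of the NCoR complex. It had 1142, 1269.9 and 1229 normalised reads in NC-up, against 1396, 1377 and 1409 in SETDB2-up. Every SETDB2-up library lay above every NC-up library, as was the case for 16.8% of all tested genes. The means were 1214 ± 65.3 and 1394 ± 16.0 (SD, n = 3 each), a 1.15-fold difference (95% interval 1.04 to 1.27; log2 change 0.20 ± 0.07 SE, adjusted p = 0.0485 by limma). SETDB2-up library 3, which held few liver transcripts, had the highest value, and with that library as the sole one of its group the log2 change was 0.22, without a call (adjusted p = 0.334 by limma). The call rested on a value close to the threshold: adjusted p ranged from 0.0265 to 0.334 over 16 alternatives and was under 0.05 in 4 of them, and leaving out any single library ended it (log2 change 0.16 without NC-up library 1, 0.23 without 2 and 0.21 without 3; 0.20, 0.21 and 0.19 without SETDB2-up library 1, 2 and 3). The difference was positive in all 16.

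**Figure D1:**
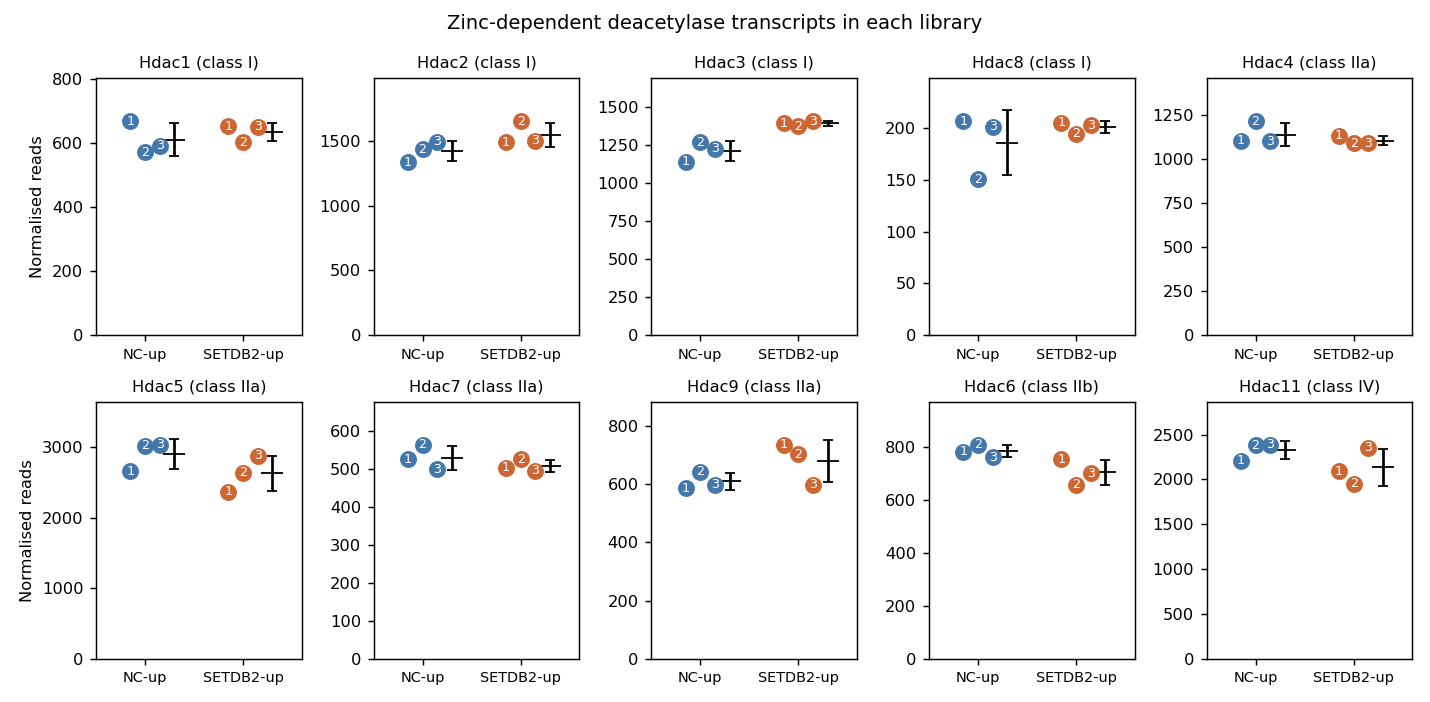
Normalised reads (vertical axes, each from 0) of the 10 zinc-dependent deacetylases in the 3 NC-up (blue) and 3 SETDB2-up (orange) libraries, with the library number in each point and the mean ± SD as a black bar. The groups are apart for Hdac3 (highest NC-up value 1269.9, lowest SETDB2-up value 1377) and for Hdac6, and overlap for the other 8 genes.

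Hdac2 (gene 15182, chromosome 10, 36974297 to 37001889, plus strand) and Hdac1 (gene 433759, chromosome 4, 129516104 to 129542646, minus strand) are the paired catalytic subunits of NuRD, Sin3 and CoREST. Hdac2 had 1339, 1438 and 1495 normalised reads in NC-up, against 1492, 1655 and 1503 in SETDB2-up. The highest NC-up value lay just above the lowest SETDB2-up value, and the log2 change of 0.12 ± 0.07 SE did not pass (adjusted p = 0.249 by limma). Hdac1 had 667, 569.8 and 591 against 652, 602 and 649.6. Its highest value was in NC-up library 1, the groups overlapped, and the interval of its fold (0.92 to 1.18, adjusted p = 0.683 by limma) held 1. Hdac8 (gene 70315, chromosome X, 102284638 to 102505381, minus strand), which deacetylates the cohesin subunit Smc3, had 207, 150.4 and 201 against 205, 194 and 203. NC-up library 2 was the lowest and the other 5 libraries lay close together, so the log2 change of 0.12 ± 0.14 SE (adjusted p = 0.606 by limma) rested on that library: without it the value was -0.02. Gm32262 overlaps Hdac8 on the opposite strand with 0.31 times its level, and the sources used here do not give the strand setting of the count, so reads of Hdac8 are uncertain.

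Among class IIa enzymes Hdac5 (gene 15184, chromosome 11, 102195747 to 102230172, minus strand), which leaves the nucleus of sensory neurons after axon injury, had 2655, 3018 and 3030.2 normalised reads in NC-up, against 2368, 2635 and 2874 in SETDB2-up. SETDB2-up libraries 1 and 2 lay below all of NC-up and library 3 within it. The log2 change was -0.15 ± 0.07 SE (95% interval -0.30 to 0.01, adjusted p = 0.186 by limma), and it passed in 1 of 16 alternatives, without SETDB2-up library 3 (-0.21, adjusted p = 0.0301 by limma). Without SETDB2-up library 1 it was -0.07, and with library 3 as the sole one of its group -0.01. Hdac9 (gene 79221, chromosome 12, 34047580 to 34917095, minus strand), a repressor of MEF2 in muscle and neurons, had 586, 643 and 598 against 734, 703 and 598. The same SETDB2-up libraries, 1 and 2, were above all of NC-up and library 3 was level with NC-up library 3, with a log2 change of 0.15 ± 0.09 SE (adjusted p = 0.275 by limma). With library 3 as the sole one of its group, the difference was -0.03 for Hdac9. These are the 2 libraries with the most Alb; whether liver tissue bears on either gene was not tested.

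Hdac4 (gene 208727, chromosome 1, 91928779 to 92195702, minus strand), a signal-dependent repressor in neurons and muscle, had 1104, 1216 and 1101 normalised reads against 1133, 1091 and 1090.4. NC-up library 2 was above the rest and the other 5 libraries lay between 1090.4 and 1133, so that the log2 change of -0.04 ± 0.07 SE (adjusted p = 0.718 by limma) was bounded by -0.19 and 0.10. Hdac7 (gene 56233, chromosome 15, 97792661 to 97844502, minus strand), best known from endothelium and thymocytes, had 525, 563 and 499.7 against 503, 526 and 495, with overlapping groups (log2 change -0.06 ± 0.09 SE, adjusted p = 0.705 by limma). Slc48a1 overlaps Hdac7 on the opposite strand with 6.43 times its level, so reads of Hdac7 are uncertain for the same reason as those of Hdac8.

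Hdac6 (gene 15185, chromosome X, 7930116 to 7948047, minus strand) had 782, 808 and 762 normalised reads in NC-up, against 753, 658 and 701 in SETDB2-up. All SETDB2-up values lay below all NC-up values, as for 16.4% of all tested genes, the nearest pair being 762 and 753. The log2 change was -0.16 ± 0.08 SE (95% interval -0.32 to 0.01) and did not pass (adjusted p = 0.197 by limma; 0.168 to 0.597 over the alternatives). Hdac11 (gene 232232, chromosome 6, 91156670 to 91174692, plus strand), an eraser of long-chain fatty acyl groups as well as acetyl groups, had 2207, 2382 and 2385 against 2093, 1954 and 2354. SETDB2-up libraries 1 and 2 were below NC-up and library 3 within it, the pattern of Hdac5, with a log2 change of -0.13 ± 0.07 SE (adjusted p = 0.234 by limma). It was -0.20 without SETDB2-up library 3 (adjusted p = 0.0319 by limma), -0.07 without library 2, and 0.02 with library 3 as the sole one of its group. Hdac10, the other class IIb gene, lies outside the chosen 10 and was looked at after the values were seen: it had 426, 324 and 328 against 357, 334 and 286 (log2 change -0.13, adjusted p = 0.495 by limma).

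The spread within NC-up exceeded that of counting alone for 9 of the 10 members, all but Hdac6, and that within SETDB2-up for 6, all but Hdac3, Hdac4, Hdac7 and Hdac8. From the mean of its recovered reads, counting alone would give Hdac5 a coefficient of variation of 1.86%, against 7.35% in NC-up, against 9.64% in SETDB2-up. For Hdac8, with 157 to 227 reads per library, the figures were 7.04%, 16.7% and 2.84%. Hdac3 varied by 5.38% in NC-up and by 1.15% in SETDB2-up, the latter below the 2.71% of counting alone.

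**Figure D2:**
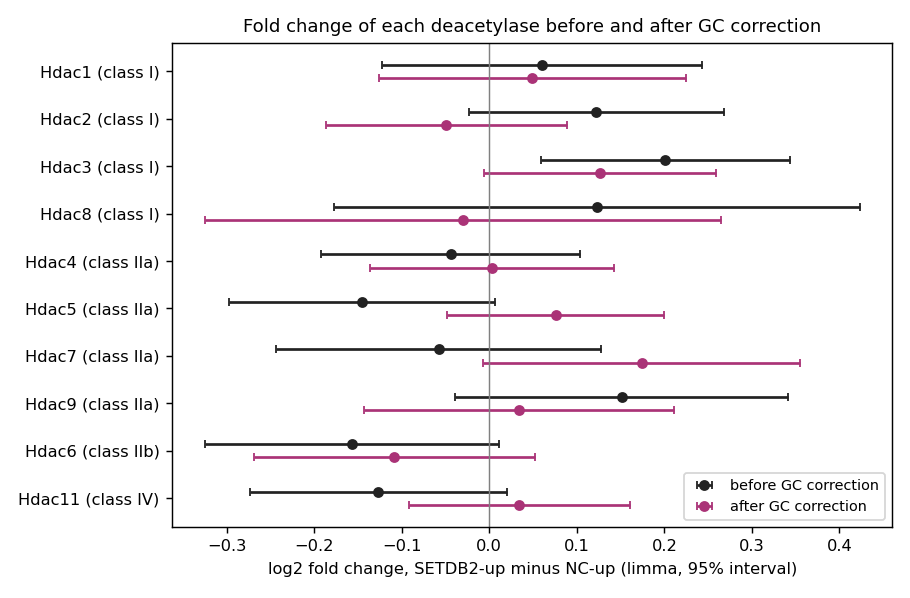
Log2 change, SETDB2-up minus NC-up (horizontal axis), of each deacetylase with its 95% limma interval, before (black) and after (purple) removal of each library's trend with transcript GC content. Before correction the interval of Hdac3 (0.06 to 0.34) is the one that leaves out 0, and after it every interval holds 0.

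The signs of the 10 differences followed base composition. The 4 members with the lowest transcript GC content, Hdac2 (41.9%), Hdac8 (43.0%), Hdac9 (45.0%) and Hdac3 (47.1%), and Hdac1 (50.0%) had positive log2 changes. The 5 with the highest, Hdac4 (52.5%), Hdac6 (52.6%), Hdac11 (57.4%), Hdac5 (59.8%) and Hdac7 (60.2%), had negative ones. Across the 10 genes, which share the same 6 libraries, Pearson's r between GC content and log2 change was -0.83 and Spearman's rho -0.77, given as a description. All tested genes with a GC value ran the same way, with a median log2 change of 0.21 in the lowest decile of GC content and -0.23 in the highest.

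Several members sat near the median of their own decile. Hdac9 was at 0.15 where its decile had 0.13, Hdac11 at -0.13 where its decile had -0.14, and Hdac4 at -0.04 where its decile had -0.04. Hdac2 (0.12) was below the 0.16 of its decile. Hdac3 (0.20 against 0.08), Hdac6 (-0.16 against -0.04) and Hdac7 (-0.06 against -0.23) lay farthest from theirs. After the GC trend of each library was removed, none of the 10 passed, beside 2.17% of 15512 genes higher and 4.0% lower. Hdac3 kept a positive value of 0.13 ± 0.06 SE (adjusted p = 0.272 by limma), Hdac7 turned to 0.17 ± 0.09 SE (0.269), Hdac6 stayed at -0.11 ± 0.08 SE (0.455), and Hdac5 (0.08), Hdac11 (0.03), Hdac2 (-0.05), Hdac8 (-0.03) and Hdac4 (0.00) also changed sign. How far the GC trend enters each difference was not tested beyond this correction.

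**Figure D3:**
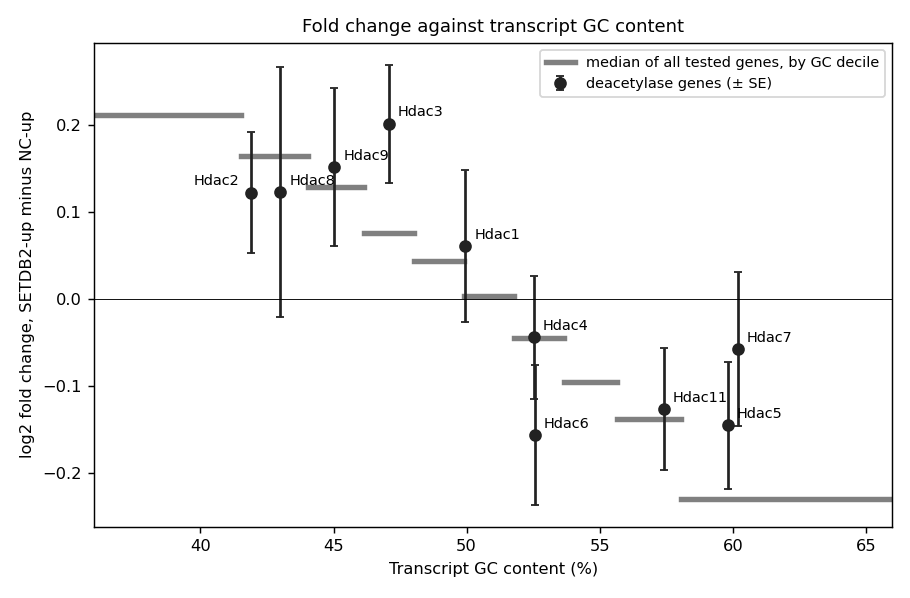
Log2 change (vertical axis, SETDB2-up minus NC-up, ± SE) of the 10 deacetylases against transcript GC content in percent (horizontal axis), with the median of all tested genes in each GC decile as grey bars; the outermost deciles are drawn only as far as the axis. The median falls from 0.21 to -0.23 across deciles, and the members fall with it; Hdac7 (-0.06 against -0.23) and Hdac3 (0.20 against 0.08) lie farthest above the median of their decile and Hdac6 (-0.16 against -0.04) farthest below.

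Levels can be compared between genes only per length, here as normalised reads per kilobase of annotated exon (all exon bases of the gene in GENCODE M21). Hdac11 was the most abundant at 579 ± 46.2 (SD over all 6 libraries), and its lowest library lay above the highest of any other member. Hdac2 (332 ± 23.0), Hdac3 (322 ± 26.6) and Hdac5 (315 ± 29.4) followed with overlapping ranges, and their order is not set by these data. Hdac1 (181 ± 11.5) and Hdac6 (128 ± 9.48) came next, each clear of its neighbours by this length. Hdac7 (76.8 ± 3.75) and Hdac4 (71.0 ± 3.06) had overlapping ranges, as did Hdac9 (43.9 ± 4.23) and Hdac8 (40.0 ± 4.44) at the bottom. The order depends on the length used: per kilobase of the longest transcript Hdac5 (511) moved above Hdac2 (458) and Hdac3 (364), Hdac4 (139) above Hdac7 (100.2) and Hdac8 (85.3) above Hdac9 (81.1). By that length the ranges of Hdac1 (mean 305) and Hdac3 overlapped, as did those of Hdac6 (mean 148) and Hdac4.

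**Figure D4:**
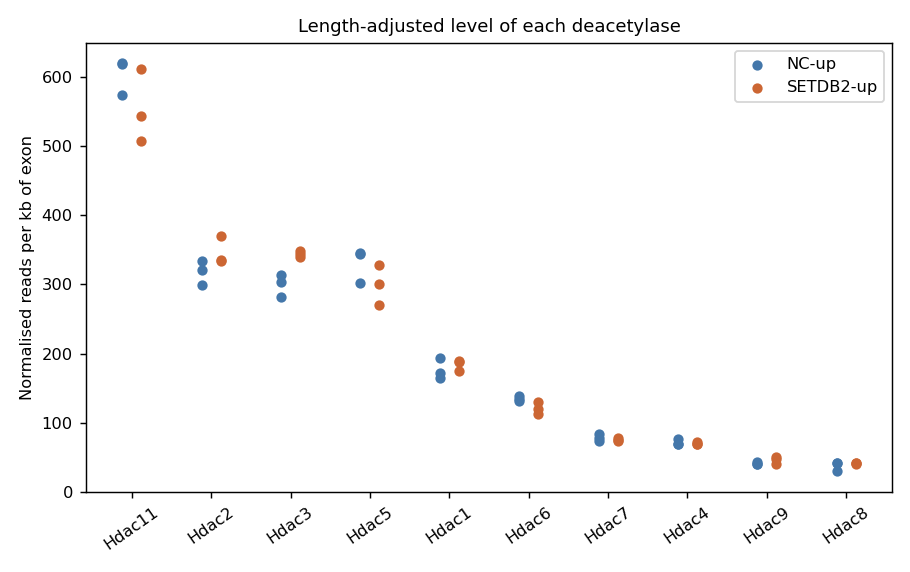
Normalised reads per kilobase of exon (vertical axis, from 0) of each deacetylase in every library, NC-up in blue and SETDB2-up in orange, ordered by the mean over all 6 libraries. Hdac11 stands above all others at a mean of 579, and Hdac9 and Hdac8 are lowest at 43.9 and 40.0.

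Before GC correction the makeup of the family by class differed slightly between the groups. Class I genes held 38.9% to 40.6% of the family's summed level per kilobase in NC-up, against 42.4% to 45.3% in SETDB2-up, without overlap. Class IIa held 24.3% to 25.6% against 22.7% to 24.3%, with NC-up values just above SETDB2-up values, and Hdac11 28.5% to 29.1% against 24.9% to 28.4%. The ranges of Hdac6, of class IIb, overlapped (6.15% to 6.67% against 5.54% to 6.32%). Per kilobase of the longest transcript the class I share stood apart again (36.9% to 39.1% against 40.4% to 43.1%), but class IIa (27.3% to 29.0% against 25.9% to 27.5%) and Hdac11 (28.3% to 29.0% against 24.9% to 28.4%) overlapped. After GC correction no class stood apart: class I held 41.6% to 42.4% in NC-up, against 41.1% to 42.8% in SETDB2-up, and Hdac11 27.4% to 28.1% against 26.1% to 28.7%. Class IIa then reached higher in SETDB2-up (24.1% to 25.5%) than in NC-up (23.5% to 24.3%). No test was made of these shares, since they combine the members. In each library the shares add up to the whole family, so a higher share of any class lowers the rest. Of all tested single genes, 16.8% lay wholly higher and 16.4% wholly lower in SETDB2-up.

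Hdac3's profile over the 6 libraries was compared with that of 12239 genes with a mean of at least 100 normalised reads. The most alike by Pearson's r of log2 values were Slc31a1 (0.997), a copper transporter gene, Cand1 (0.993), an exchange factor of cullin ubiquitin ligases, and Pcgf5 (0.992), a Polycomb RING finger gene. An r this high over 6 points was not particular to these genes: 115 of the 12239 had an r of at least 0.95. Within the family the most alike was Hdac2 (0.74) and the least alike Hdac6 (-0.65).

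RefSeq promoter sequences (GRCm38.p6) were matched for 8 of the 10 members. They are shown for the 3 genes whose RefSeq start site coincides with the gene start of the table, all of class IIa, because Klf4 fell in the same libraries (216, 203 and 175 normalised reads in NC-up, 118, 147 and 101 in SETDB2-up; log2 change -0.71 ± 0.16 SE, adjusted p = 0.00612 by limma) and Kruppel-like factors bind the core CACCC. Each line gives the 250 bases before the start site on the gene's own strand, with CACCC or its complement GGGTG in capitals: chr11:102230173-102230422 for Hdac5, chr15:97844503-97844752 for Hdac7 and chr12:34917096-34917345 for Hdac9, all on the minus strand.
Hdac5: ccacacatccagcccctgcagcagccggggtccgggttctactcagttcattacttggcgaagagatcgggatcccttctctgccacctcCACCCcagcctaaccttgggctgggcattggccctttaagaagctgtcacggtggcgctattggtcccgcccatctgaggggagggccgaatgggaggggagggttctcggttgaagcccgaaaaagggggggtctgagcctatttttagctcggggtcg
Hdac7: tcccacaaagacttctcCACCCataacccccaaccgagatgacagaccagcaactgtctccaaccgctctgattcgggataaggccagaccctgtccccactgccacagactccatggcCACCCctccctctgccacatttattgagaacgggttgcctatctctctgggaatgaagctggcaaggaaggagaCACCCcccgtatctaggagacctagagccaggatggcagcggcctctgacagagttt
Hdac9: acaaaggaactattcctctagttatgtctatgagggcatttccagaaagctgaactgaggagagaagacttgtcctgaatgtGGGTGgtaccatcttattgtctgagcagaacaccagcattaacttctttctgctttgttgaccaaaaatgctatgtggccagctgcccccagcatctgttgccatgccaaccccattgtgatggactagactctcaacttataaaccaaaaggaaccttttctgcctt
Hdac5 holds 1 match, Hdac7 3 and Hdac9 1, the last on the opposite strand. Among the windows not shown, those of Hdac4, Hdac6 and Hdac8 hold 0, that of Hdac2 1 and that of Hdac11 3. Further windows at other start sites hold 1, 3 and 1 for Hdac7 and 0 for Hdac9. On either strand, 52.0% of all 32851 promoter windows of that length hold the core, so a match is common. GC content was 60.8% in the Hdac5 window, 56.4% in that of Hdac7 and 44.4% in that of Hdac9, against a median of 52.4% over all windows. Hdac9 has no CG dinucleotide in the window, Hdac5 has 12 and Hdac7 has 6. None of these 3 genes passed the test, and nothing follows from the matches about binding.

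The partner subunits through which class I enzymes act were then counted. Over the NuRD, Sin3, CoREST, NCoR and MiDAC/MIER lists 2 of 47 reported genes rose and 10 fell, against 7.71% and 8.71% of all genes, and their median log2 change was -0.10. After GC correction 1 rose and 5 fell, against 2.17% and 4.0% of all genes. In the CoREST list, a complex of Hdac1 and Hdac2 with a histone demethylase, 1 of 10 rose and 3 fell (median -0.12). Kdm1a, that demethylase, fell from 1405 ± 65.9 to 1013 ± 75.6 normalised reads (SD, n = 3 each; log2 change -0.47 ± 0.07 SE, adjusted p = 0.000323 by limma), and Rcor2, a scaffold subunit, from 293 ± 20.5 to 175 ± 9.11 (-0.74 ± 0.12 SE, adjusted p = 0.000519 by limma). Zmym2, a zinc-finger subunit, rose from 934 ± 35.3 to 1410.3 ± 72.8 (0.59 ± 0.07 SE, adjusted p = 2.56e-05 by limma). Single libraries did not decide these 3 calls. They also held after GC correction (-0.45, -0.47 and 0.39), while Hmg20b fell by 0.36 on the log2 scale before it and did not pass after it (-0.12). Luzp1 overlaps Kdm1a on the opposite strand with 2.89 times its level.

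In the NuRD list, the complex that joins deacetylase to nucleosome remodelling, 4 of 13 fell and none rose (median -0.13). The methyl-CpG-binding subunit Mbd2 fell from 2383 ± 280.1 to 1732 ± 78.1 (SD, n = 3 each; log2 change -0.45 ± 0.08 SE, adjusted p = 0.0005 by limma) and held after GC correction (-0.31), as did Cdk2ap1 (-0.48 and -0.33). Mbd3 (-0.33) and Gatad2a (-0.27) fell too but did not pass after it, Mbd3 at -0.02. In the Sin3 list 1 of 14 rose and 2 fell (median -0.02): the corepressor subunit Sap30l fell from 4228 ± 434 to 2831 ± 83.4 (log2 change -0.57 ± 0.07 SE, adjusted p = 2.41e-05 by limma), Suds3 fell (-0.20) and Brms1l rose (0.21), and none passed after GC correction. In the NCoR list, the complex of Hdac3, 1 of the 4 reported genes fell, Gps2 (-0.48, and -0.34 after GC correction), which Eif5a overlaps on the opposite strand with 10.2 times its level. Tbl1xr1, a scaffold subunit, was at 0.19 (adjusted p = 0.0997 by limma), and at 0.28 (adjusted p = 0.0082 by limma) without SETDB2-up library 3. No member of the MiDAC/MIER list passed, with Mideas at -0.16 and Dnttip1 at -0.15. Smaller changes lost their calls without single libraries but kept their sign. The Gatad2a call was lost without SETDB2-up library 1 (-0.25, against -0.27 with all libraries). That of Suds3 (-0.20 with all libraries) was lost without NC-up library 2 (-0.20) or 3 (-0.16) or SETDB2-up library 1 (-0.20) or 2 (-0.19). Brms1l lost its call without NC-up library 1 (0.20), 2 (0.20) or 3 (0.22) or SETDB2-up library 1 (0.21) or 2 (0.18).

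**Figure D5:**
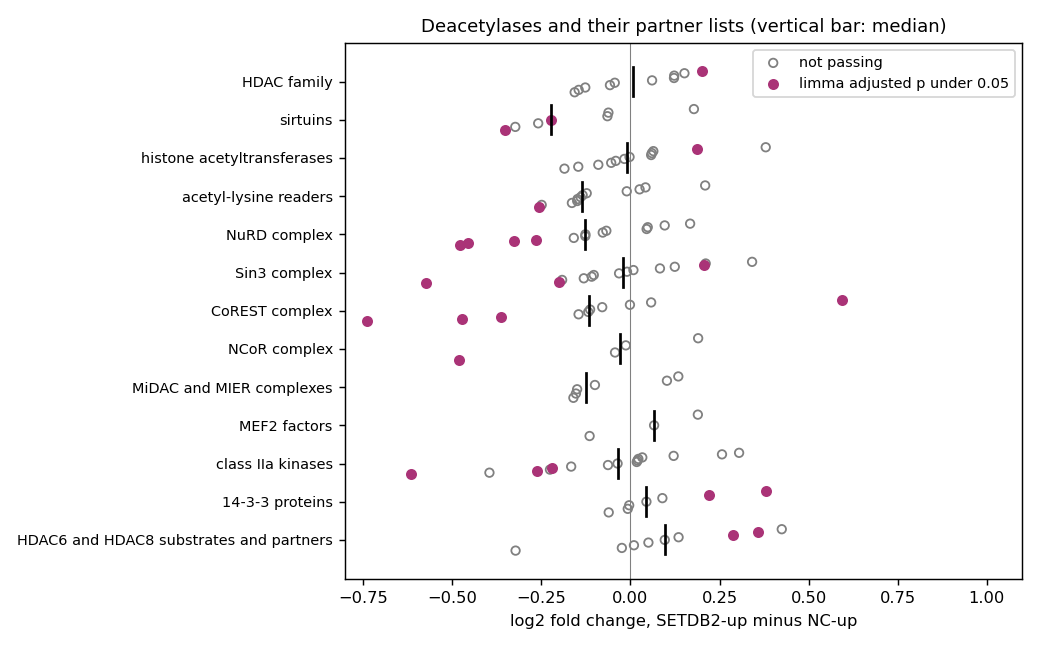
Log2 change, SETDB2-up minus NC-up (horizontal axis), of every reported gene in the deacetylase family and 12 related lists, with genes at a limma adjusted p under 0.05 filled and the median of each list as a vertical bar. The deacetylases span -0.16 to 0.20, a narrower range than the CoREST list, which runs from -0.74 to 0.59. The MiDAC/MIER list (-0.16 to 0.13) and the MEF2 list (-0.11 to 0.19), of fewer genes, span still less.

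Around the class IIa enzymes, none of 3 tested MEF2 factors passed (Mef2c 0.19, Mef2d -0.11). Counts here stand beside 7.71% of all genes higher and 8.71% lower, or 2.17% and 4.0% after GC correction. Among the kinases that can phosphorylate class IIa enzymes 3 of 15 fell and none rose: Sik1, a salt-inducible kinase, from 339 ± 51.5 to 221 ± 30.6 (SD, n = 3 each; log2 change -0.62 ± 0.13 SE, adjusted p = 0.00437 by limma), Mark3 (-0.26) and Mark2 (-0.22). After GC correction Sik1 (-0.51) and Mark3 (-0.45) still passed and Mark2 (-0.06) did not. Of 7 tested 14-3-3 genes 2 rose, Ywhaq (0.38, and 0.26 after GC correction) and Ywhaz (0.22, and 0.11 without a call). Among substrates and partners of Hdac6 and Hdac8, 2 of the 9 reported genes rose: the chaperone Hsp90aa1 (0.36) and the cohesin subunit Smc1a (0.29), which both passed after GC correction (0.22 and 0.21). Without single libraries, the call of Mark2 was lost for NC-up library 2 (-0.20) or 3 (-0.22) and SETDB2-up library 1 (-0.18), that of Ywhaz for NC-up library 2 (0.18), and Mef2c passed without SETDB2-up library 3 (0.26).

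Other erasers, writers and readers of lysine acetylation were counted beside the same 7.71% higher and 8.71% lower over all genes. Of 7 sirtuins, the NAD-dependent deacetylases, 2 fell and none rose (median -0.22): Sirt2, the abundant tubulin deacetylase of myelinating glia, had 5177, 4918 and 4948 normalised reads against 4324, 4047 and 4530.4 (log2 change -0.22 ± 0.06 SE, adjusted p = 0.0130 by limma), and Sirt7, a nucleolar enzyme, fell by 0.35 on the log2 scale. Neither passed after GC correction (-0.14 and -0.23). Of 8 Schwann cell markers 3 fell, with a median log2 change of -0.08 over the 8, and none fell after GC correction. Their part in the Sirt2 value was not tested. Of 12 acetyltransferases 1 rose, Kat7 (0.19, and 0.18 after GC correction without a call), and Hat1 was at 0.38 (adjusted p = 0.0605 by limma). After GC correction 1 of the 12 fell, beside 4.0% of all genes, and none rose. It was Kat2b (-0.27, adjusted p = 0.0434 by limma), which had no call before (-0.19, adjusted p = 0.117 by limma). Of 12 acetyl-lysine readers 1 fell, Brpf1 (-0.26, and -0.14 after GC correction without a call), and Brd2 was at -0.15 (adjusted p = 0.0703 by limma). Sirt2 lost its call without NC-up library 1 (-0.20) or SETDB2-up library 2 (-0.18). Kat7 lost it without NC-up library 1 (0.19), 2 (0.18) or 3 (0.19) or SETDB2-up library 1 (0.20) or 2 (0.16), and Brpf1 without NC-up library 1 (-0.23) or 3 (-0.25) or SETDB2-up library 1 (-0.24) or 2 (-0.28). Hat1 passed without NC-up library 1 (0.51) and Brd2 without SETDB2-up library 3 (-0.16).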

How the data were processed

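Messenger RNA of mouse trigeminal ganglion was sequenced in 6 libraries, enriched for polyadenylated RNA and strand-specific per the labels' protocols. HISAT2, FastQC and GRCm38 were used, per the submitters' processing notes; how reads were counted, with which strand setting and annotation, and how low genes were dropped, is not stated in the sources used here. The deposited signal per gene is a read count scaled by the authors, with one factor for each library: 100.0% of values in each library were whole multiples of one step (tolerance 0.001 read), which gave back whole reads.

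The test was limma (3.58.1, R 4.3.3) with a mean-variance trend on log2(value + 1), over 16387 genes that reached a value of 1 in 3 or more libraries (28 removed), with Benjamini-Hochberg adjustment over all of them and a threshold of 0.05. The design named edgeR for whole counts; as the deposited values are scaled, edgeR (4.0.16) and DESeq2 (1.42.0) on recovered reads were alternatives. Fold changes are on the log2(value + 1) scale. Limma and edgeR, but not DESeq2, were tested on simulated data, which held no GC trend. GC content (longest transcript) and exon length came from GENCODE M21, matched for 94.7% of genes; the GC correction removed each library's loess trend (span 0.3). Named partner genes were up to 4 passing members per list by smallest p, or else the 2 with the smallest p. Kat2b was named besides, for its call after GC correction. Some genes of these lists are not reported here and enter no list count. Members, lists and alternatives were chosen with earlier results of these data known. Intervals cover the spread between libraries as limma estimates it.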

Additional observations from a re-analysis of the deposited data

How the results depend on the processing

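Between 0 and 1 deacetylases were called higher, and between 0 and 2 lower, in every alternative. The count of higher members was 1 with a pseudocount of 0.1, without the filter, with DESeq2 and with the replicate block, and 0 with edgeR (TMM or RLE factors), limma-voom, GC correction, the replicate block with GC correction, without any single library, and without SETDB2-up libraries 1 and 2 together. The 2 members called lower, without SETDB2-up library 3, were Hdac5 and Hdac11. In that setting 3335 of 16387 genes were called in either direction. In all other settings the count of lower members was 0. Whether the replicate number pairs the libraries is not settled here. Same-numbered libraries correlated in their deviations at 0.038, 0.036 and 0.048, each the highest for its library but under 0.1. Pairs with different numbers ran from -0.035 to -0.0056. With the replicate block 3618 genes changed in place of 2690 and Hdac3 had a limma adjusted p of 0.0265. Some partner genes without a call after GC correction alone passed with the block and GC correction. Their limma adjusted p was 0.0165 for Sap30l, 0.0458 for Suds3, 0.0295 for Gatad2a, 0.0245 for Sirt2, 0.0437 for Sirt7 and 0.0191 for Kat7. Mbd3 (0.867) and Brpf1 (0.235) did not pass there either. Over all genes, 956 changed after GC correction, 1845 with the block and GC correction, 1082 to 3335 without one library (1082 without SETDB2-up library 1, 1575 without SETDB2-up library 2 and 1611 without NC-up library 2), and 447 without SETDB2-up libraries 1 and 2, where the lone library is assumed to vary like the others.

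Signs turned as follows, none with a call. After GC correction, with and without the replicate block, the log2 changes were -0.049 for Hdac2, -0.030 for Hdac8, 0.0028 for Hdac4, 0.076 for Hdac5, 0.17 for Hdac7, 0.034 for Hdac11, 0.019 for Brd2 and 2.8e-05 for Hdac10. Leaving out one library gave Hdac8 -0.023 (without NC-up library 2) to 0.21 and Hdac4 -0.069 to 0.0030 (without NC-up library 2). Without SETDB2-up libraries 1 and 2, Hdac9 was at -0.025 and Hdac11 at 0.019. The causes were not tested.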
